A study of Mus musculus with 8 samples.

Results

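The genes described here lie in a pair of segments of mouse chromosome 12 that held fewer input tags in menin-null than in wild-type (wt) embryonic stem cells (mESCs). The segments are 1.8 Mb and 5.4 Mb long in the mm9 assembly. The last gene of the 1.8-Mb segment is 1700020O03Rik (its annotated interval begins at 87582819), and the genes of the 5.4-Mb segment run from Gm17032 (107565578) to Eif5 (112776312). All protein-coding, lincRNA and processed-transcript genes that start in them were taken, apart from the 7 imprinted genes Begain, Dlk1, Meg3, Rtl1, Rian, Mirg and Dio3. This gave 91 of the 26212 annotated genes, 34 in the 1.8-Mb segment and 57 in the 5.4-Mb segment, of which 66 code for protein, 10 are lincRNAs and 15 are processed transcripts. The segments were chosen by the input ratio of the mESC libraries, so that ratio is given only as a description. The H3K4me3 libraries and the inputs of differentiated cells were not used in the choice.

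Tags are 36-bp reads with a unique place in the genome. The undifferentiated cells were the wt line TC-1 and the menin-null (Men1-KO) line 3.2N, and the differentiated cells were pancreatic islet-like endocrine cells (PILECs) made in vitro from each. All 4 kinds of cells had the 129S6/SvEvTac background, and the mESCs were grown on irradiated feeder fibroblasts and then freed of them. Each gave 1 H3K4me3 library and 1 input library, 8 in all, so there were no replicates and no test between conditions. Each genotype is a single cell line, and the genotype cannot be told apart from other differences between the lines.

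The mESC H3K4me3 libraries were the shallowest, with 2432377 (wt) and 3517028 (menin-null) tags, against 18773635 and 17682677 for PILECs. Inputs held between 3744616 and 19016697 tags. Men1 exons 3 to 8 (chromosome 19, 6336725 to 6338961) had 17 and 22 input tags in the wt libraries of the mESC and PILEC stages. Both menin-null inputs had 0 there, where such a count still leaves room for 3 tags. All 6 mESC marker promoters checked, Pou5f1, Nanog, Sox2, Zfp42, Esrrb and Tdgf1, had at least 5 H3K4me3 tags per 1000000 library tags (RPM) in both mESC libraries, and 1 of them, Sox2, did in each PILEC library. The islet markers did not stand out in PILECs by H3K4me3. The paper reported islet transcripts by RT-PCR, NeuroD1 protein and C-peptide staining in PILECs of both genotypes. Of the 8 islet markers, 2 reached 5 RPM in the wt and 3 in the menin-null PILEC library. Ins1, Gcg and Iapp were under 1 RPM in both. Of 6 fibroblast markers 3 reached 5 RPM in each mESC library, and 4 (wt) and 3 (menin-null) did in the PILEC libraries, with summed levels of 42.8 (wt) and 42.1 RPM (menin-null) at the mESC stage and 37.4 (wt) and 34.6 RPM (menin-null) at the PILEC stage. The islet list summed to 44.0 and 43.8 RPM in mESCs and to 23.0 and 25.8 RPM in PILECs, and the mESC list to 271 and 315 RPM in mESCs and to 37.9 and 39.0 RPM in PILECs. The part of such differences in the results was not tested.

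Input is sheared chromatin sequenced without an antibody, and its tag density follows the amount of DNA that a culture holds of each region. H3K4me3 is placed on nucleosomes around the starts of active and poised genes, mostly at CpG-rich promoters, by SET1 and MLL methyltransferase complexes, some of which contain menin. The H3K4me3 tag count of a promoter follows both the amount of its DNA and the share of its nucleosomes that carry the mark. The question was whether H3K4me3 at genes of these segments differed between the genotypes by as much as the input did, in mESCs and after differentiation.

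Sequences of a few promoters show what kinds of starts were counted, each printed 5′ to 3′ from mm9 with CpG dinucleotides in capitals. The first 3 are the 250 bases before the start of Fos, which is marked in all 4 libraries, of Batf, a related gene without the mark, and of Tgfb3, which had the lowest ratio in mESCs. They lie at chr12:86814590-86814839 (plus strand), chr12:87027369-87027618 (plus strand) and chr12:87419992-87420241 (minus strand). The last 2 are the whole stretch between the starts of a divergent pair, 97 bases for Wars and Wdr25 (chr12:110132385-110132481) and 72 bases for 1110018G07Rik and Fcf1 (chr12:86311775-86311846), printed on the plus strand.
Fos: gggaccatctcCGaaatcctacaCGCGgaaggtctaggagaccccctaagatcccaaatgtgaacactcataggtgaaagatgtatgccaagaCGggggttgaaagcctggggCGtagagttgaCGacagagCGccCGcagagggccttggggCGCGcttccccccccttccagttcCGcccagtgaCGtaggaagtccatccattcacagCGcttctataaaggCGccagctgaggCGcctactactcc
Batf: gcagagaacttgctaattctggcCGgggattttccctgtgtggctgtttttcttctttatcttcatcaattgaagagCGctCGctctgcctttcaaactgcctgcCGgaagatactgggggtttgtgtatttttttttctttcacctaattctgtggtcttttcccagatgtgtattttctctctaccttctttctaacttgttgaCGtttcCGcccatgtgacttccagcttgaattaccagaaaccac
Tgfb3: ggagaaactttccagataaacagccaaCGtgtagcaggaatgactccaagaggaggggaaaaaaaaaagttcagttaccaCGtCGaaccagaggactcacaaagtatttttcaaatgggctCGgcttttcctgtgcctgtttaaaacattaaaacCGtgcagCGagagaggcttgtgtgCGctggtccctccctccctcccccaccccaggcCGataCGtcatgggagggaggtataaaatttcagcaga
Wars-Wdr25: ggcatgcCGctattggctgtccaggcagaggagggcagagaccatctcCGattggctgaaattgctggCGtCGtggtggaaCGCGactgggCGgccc
1110018G07Rik-Fcf1: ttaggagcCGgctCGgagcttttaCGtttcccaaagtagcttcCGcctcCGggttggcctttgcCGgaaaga

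The 250 bases of Fos hold 15 CpGs, those of Tgfb3 9 and those of Batf 6. Over 300 bases around the start, from 250 before to 50 after it, the genes of the segments had a median of 17 CpGs, beside 12 over all genes. Most genes with the mark were CpG-rich. Of the 61 genes with at least 20 H3K4me3 tags in the 2 mESC libraries together, 55 had at least 10 CpGs (90.2%, and 89.3% of all genes with as many tags). Of the 30 with fewer tags 4 did (13.3%, and 8.59% of all such genes). In 6 divergent pairs, Npc2 with Isca2, 1110018G07Rik with Fcf1, 0610007P14Rik with Ttll5, Wars with Wdr25, Stk30 with 4921507G05Rik and Cinp with Tecpr2, the starts are 73 to 158 bases apart, so both genes of a pair were counted from nearly the same tags. Joined where they overlap, the windows of 1 kb on each side of the starts of the 91 genes make 83 distinct windows.

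The mESC input, which chose the segments and set their edges, is described first. In mESCs the 1.8-Mb segment held 2191 input tags in menin-null and 4649 in wt cells, and the 5.4-Mb segment held 6500 and 14232. Both together had a log2 ratio of RPM, menin-null over wt, of -0.94 (95% interval -0.97 to -0.90), or 52.2% of the wt level. All 36 bins of 200 kb inside lay between -1.30 and -0.73, and the 20 bins within 1 Mb outside lay between -0.38 and 0.20. Intervals are exact conditional binomial (Clopper-Pearson) limits of 2 counts and cover counting error only.

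In PILECs, whose input was not used in the choice, the same segments also held fewer input tags in menin-null cells. The 1.8-Mb segment held 13470 tags in menin-null and 16355 in wt PILECs, and the 5.4-Mb segment held 41094 and 49314. The log2 ratio of both together was -0.20 (-0.21 to -0.18), or 87.2% of the wt level. All 36 bins inside lay below 0, between -0.30 and -0.12, while those outside lay between -0.10 and 0.05. The gap between the PILEC ranges inside and outside was narrow, and 11 of the 20 bins outside also lay below 0. The share of all bins of the genome as low as those inside was not counted. In a culture, a lower content in a part of the cells and a lower content in each cell cannot be told apart.

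**Figure D1:**
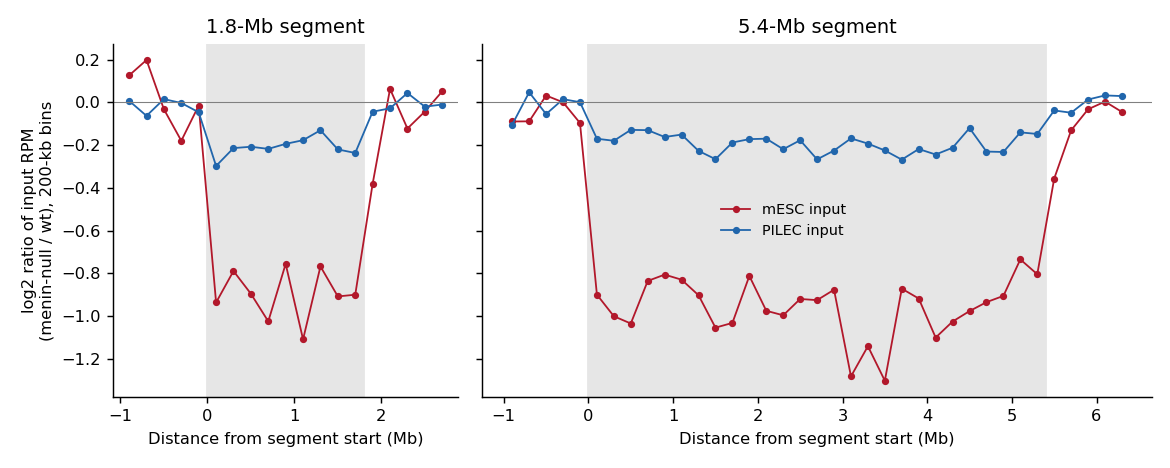
Log2 ratio of input RPM, menin-null over wt, in 200-kb bins (points) against the distance from the segment start in Mb, for mESCs (red) and PILECs (blue). The grey area is the segment. Inside it the mESC bins lie between -1.30 and -0.73 and the PILEC bins between -0.30 and -0.12.

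H3K4me3 at the genes of the segments was lower in menin-null than in wt mESCs at every start with at least 20 tags. These were 61 of the 91 genes. Their median log2 ratio was -0.71, with quartiles of -0.87 and -0.51, and each of the 61 lay below 0, from -2.39 at Tgfb3 to -0.13 at Ankrd9. Over all 15204 genes with at least 20 tags, 25.0% lay below 0 and the median was 0.23, so a typical promoter had more RPM in the menin-null library. Relative to that median the genes of the segments lay at -0.94. The 486 other genes of chromosome 12 had a median of 0.25, and the medians of the 19 autosomes, without the segments, ran from 0.07 on chromosome 1 to 0.28 on chromosome 17, apart from 0.44 on chromosome 8.

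At least 1.5-fold lower were 40 of the 61 genes and none was as much higher, where 3.58% of all genes were that much lower and 11.8% that much higher. The interval lay below 0 at 44 of the 61, beside 1.84% of all genes, and above 0 at 0 of the 61, beside 25.8% of all genes. Relative to the median of all genes 56 were at least 1.5-fold lower, beside 7.89% of all genes, 0 were as much higher, beside 2.99%, and the interval lay below that median at 51, beside 6.63%. Summed over the 83 windows the menin-null library held 3993 tags, or 1135 RPM, and the wt library 4259 tags, or 1751 RPM. The log2 ratio of the sums was -0.63 (-0.69 to -0.56). Scaled by the tags at all other starts instead of the whole library, it was -0.87 (-0.93 to -0.80), which is 54.8% of the wt level (52.5 to 57.2).

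In PILECs the H3K4me3 of these genes was also lower in menin-null cells, by less. The median over 82 genes with at least 20 tags was -0.30, or -0.23 relative to the median of all 20259 genes, -0.07. At this depth 20 tags can also come from unmarked starts. Of the 91 genes, 51 reached 5 RPM in wt (56.0%, beside 51.9% of all genes) and 48 in menin-null PILECs (52.7%, beside 51.1%). With at least 50 tags the median was -0.32. Of the 82 genes 68 lay below 0, beside 63.3% of all genes. At least 1.5-fold lower were 8 genes (7.69% of all genes) and at least 1.5-fold higher 3 (6.55% of all genes). The count of lower genes depended on the threshold and the window. It was 2 of 57 genes with at least 50 tags, beside 5.46% of all genes, 5 of 91 within 2 kb of the start, beside 5.89% of all genes, and 38 of 82 at a log2 ratio of -0.32 or lower, beside 19.9% of all genes. The interval lay below 0 at 40 genes, beside 23.7% of all genes, and above 0 at 2, beside 5.50%. Relative to the median of all genes the interval was lower at 36, beside 15.5% of all genes, 7 genes were at least 1.5-fold lower, beside 5.95%, and 5 at least 1.5-fold higher, beside 7.62%.

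The sums were 22764 tags, or 1287 RPM, in menin-null and 29610 tags, or 1577 RPM, in wt PILECs. Their log2 ratio was -0.29 (-0.32 to -0.27), and scaled by the tags at all other starts it was -0.20 (-0.23 to -0.18), which is 86.9% of the wt level (85.5 to 88.5). Of the 61 genes counted in both stages, 52 had a lower ratio of RPM in mESCs than in PILECs. The other 9 did not, beside 81.0% of all genes, and were Eif2b2, Mlh3, Cyp46a1, Gm16596, Yy1, Zfp839, Ankrd9, Traf3 and Eif5. Relative to the median of all genes in each stage, a scale chosen after seeing the data, 60 lay lower in mESCs, beside 47.1% of all genes. Ankrd9 was the exception on this scale, with -0.36 in mESCs and -0.46 in PILECs.

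**Figure D2:**
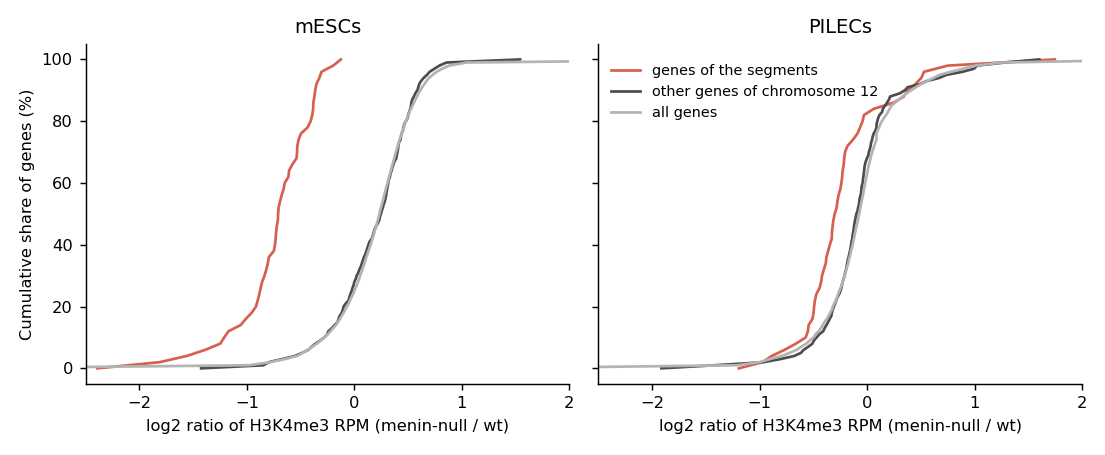
Cumulative share of genes (%) against the log2 ratio of H3K4me3 RPM, menin-null over wt, in mESCs and PILECs, for genes of the segments (red), other genes of chromosome 12 (dark grey) and all genes (light grey) with at least 20 tags. The red curve lies to the left in mESCs, with a median of -0.71 against 0.23 for all genes, and close to the others in PILECs, with -0.30 against -0.07.

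Relative to all genes with as many tags, the shift was of similar size at weakly and strongly marked starts. The classes are by the tags of both genotypes together, so a lower menin-null count can also lower the class of a gene. The part of this in the differences was not tested. With 20 to 99 tags in mESCs, 23 genes of the segments had a median of -0.87, beside 0.00 for all genes of that class. With 100 to 199 tags, 18 genes had -0.68, beside 0.19. With 200 tags or more, 20 genes had -0.54, beside 0.31. The differences from all genes were -0.87, -0.87 and -0.85. In PILECs the differences were -0.24, -0.27 and -0.20 for 20 to 199, 200 to 999 and at least 1000 tags.

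By segment, the 27 genes counted in the 1.8-Mb segment had a median of -0.84 in mESCs and the 34 in the 5.4-Mb segment one of -0.58, and 23 and 17 of them were at least 1.5-fold lower. In PILECs the medians were -0.28 over 30 genes and -0.33 over 52 genes. The difference between the segments was not tested.

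Once the median of all genes and the input shift of its segment were taken off each ratio, the genes of the segments were spread around 0. For mESCs this is a description only, because that input chose the segments. The median of what was left was 0.00 in mESCs and -0.02 in PILECs. This depends on the centring on all genes: with the input shift alone taken off, the medians were 0.22 in mESCs and -0.10 in PILECs. Whether these medians differ from 0 was not tested, since genes of 1 library pair are not replicates. The mESC median of 0.00 joins segments that lay on opposite sides of their input shift. In the 1.8-Mb segment the median relative to all genes was -1.07, beside an input shift of -0.91 less the median of input bins. In the 5.4-Mb segment it was -0.81, beside -0.96. In PILECs these values were -0.21 beside -0.21 and -0.25 beside -0.19. The SD over genes of what was left was 0.41 in mESCs and 0.44 in PILECs, beside 0.39 and 0.43 for the ratios of all genes. In mESCs the interval held 0 at 54 of 61 genes, lay below it at 2 (Tgfb3 and Degs2) and above it at 5 (Eif5, Cdc42bpb, Ccdc85c, Yy1 and Ankrd9). These 7 genes are 11.5% of those counted, and 14.2% of all genes had an interval without the median of all genes. In PILECs the interval lay below 0 at 11 and above 0 at 8 of 82 genes, or 23.2%, beside 26.6% of all genes.

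Tags of the H3K4me3 libraries that lie over 5 kb from any annotated start were counted as well. In mESCs there were 3321 such tags in menin-null and 4564 in wt cells, a log2 ratio of -0.99 (-1.06 to -0.93), beside -0.27 for such tags of the whole genome. In PILECs there were 30246 and 34264, a ratio of -0.09 (-0.12 to -0.07), beside 0.09 for the whole genome. Less the value of the whole genome, the segments lay at -0.72 in mESCs and -0.18 in PILECs. The input, less the median of its bins, lay at -0.95 in mESCs and -0.20 in PILECs. Without such a reference it lay at -0.94 and -0.20. The difference between the kinds of tags was not tested.

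**Figure D3:**
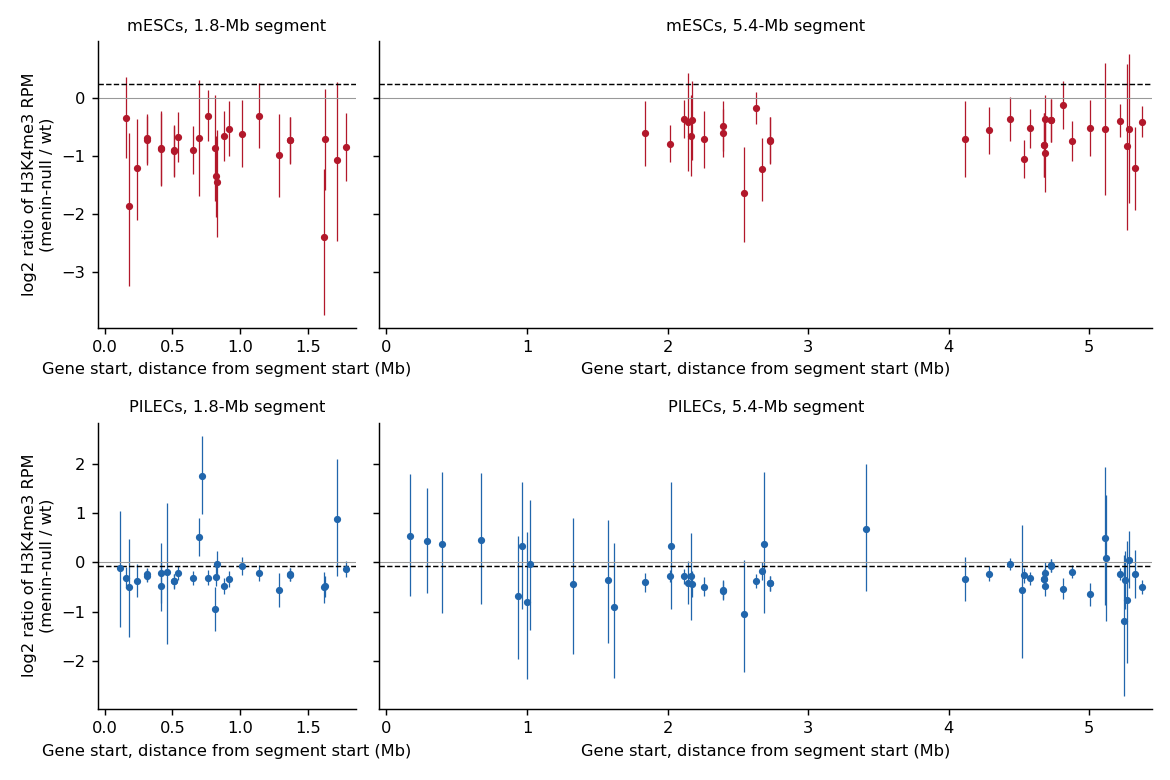
Log2 ratio of H3K4me3 RPM within 1 kb of the start, menin-null over wt, of each gene with at least 20 tags (points) with its 95% counting interval (bars), against the distance of the start from the segment start in Mb. The dashed line is the median of all genes, 0.23 in mESCs and -0.07 in PILECs. In mESCs all 61 points lie below 0, and no gene is plotted in the first part of the 5.4-Mb segment, where 13 genes start but none reached 20 tags.

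Groups of genes by role were not tested against each other or against the other genes of the segments, and their counts stand beside those of all counted genes of the segments. In mESCs these were 40 of 61 at least 1.5-fold lower (3.58% of all genes) and 44 of 61 with an interval below 0 (1.84% of all genes). In PILECs they were 8 of 82 at least 1.5-fold lower (7.69% of all genes), 40 of 82 with an interval below 0 (23.7%) and 2 of 82 with one above 0 (5.50%).

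On the list of regulators of transcription and chromatin, 6 of 8 genes could be counted in mESCs, and 4 of them were at least 1.5-fold lower. Setd3 is 1 of the 4, though its known substrate is actin. Yy1, a zinc finger factor that can activate or repress genes (chromosome 12, 110031183 to 110054842), had 192 tags or 78.9 RPM in wt and 247 tags or 70.2 RPM in menin-null mESCs, and 50.9 and 39.0 RPM in wt and menin-null PILECs. The mESC libraries gave a log2 ratio of -0.17 (-0.45 to 0.11) and the PILEC libraries one of -0.38 (-0.53 to -0.24). It had the highest level of the segments in menin-null mESCs, and its mESC ratio was closer to 0 than that of any other counted gene but Ankrd9.

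Setd3, an actin histidine methyltransferase, had 75.6 and 43.8 RPM in wt and menin-null mESCs and 70.9 and 58.4 RPM in PILECs, with ratios of -0.79 (-1.11 to -0.47) and -0.28 (-0.40 to -0.16). Rcor1, a corepressor that works with a histone demethylase, had 61.7 and 37.0 RPM in mESCs and 50.2 and 44.1 RPM in PILECs, with ratios of -0.74 (-1.09 to -0.39) and -0.19 (-0.33 to -0.05). Both were lower in the menin-null library in each stage. Vrtn, a factor known for its effect on the number of vertebrae, had 20 tags in wt and 8 in menin-null mESCs, a ratio of -1.85 (-3.25 to -0.61), and only 1.28 and 0.90 RPM in PILECs.

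The AP-1 genes of the 1.8-Mb segment, which code for subunits of a stress- and growth-responsive factor, were 2 marked genes and 1 unmarked. Fos had 22.6 and 14.8 RPM in wt and menin-null mESCs, with a ratio of -0.61 (-1.19 to -0.04), and 27.9 and 26.6 RPM in PILECs, with a ratio of -0.07 (-0.25 to 0.11). Jdp2, a repressor that pairs with Jun proteins, had a ratio of -0.31 (-0.86 to 0.25) in mESCs and -0.21 (-0.38 to -0.05) in PILECs. Batf, the family member of lymphoid cells whose promoter is printed above, had 2 and 5 tags in mESCs and 9 and 9 in PILECs, too few for a comparison.

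Of 6 genes of RNA processing and translation 4 were at least 1.5-fold lower in mESCs (3.58% of all genes). In PILECs none was (7.69% of all genes), while 5 had an interval below 0 (23.7%) and Rps6kl1, the sixth, one above 0 (5.50%). Rps6kl1 is on this list but is a kinase-like gene, and it is also 1 of the 4 lower in mESCs. Eif5, which helps the ribosome to find the start codon, had the highest level of the segments in wt mESCs, with 90.4 RPM beside 68.2 in menin-null mESCs, and a ratio of -0.41 (-0.68 to -0.14). In PILECs it had 62.5 and 44.2 RPM, a ratio of -0.50 (-0.63 to -0.37), so that it was no closer to 0 there than in mESCs. Wars, the tryptophan tRNA synthetase, had -0.72 (-1.13 to -0.32) in mESCs and -0.42 (-0.58 to -0.27) in PILECs. Ylpm1 had -0.67 (-1.10 to -0.24) and -0.21 (-0.35 to -0.07). Eif2b2, a subunit of the exchange factor for the initiation factor eIF2, had one of the ratios closest to 0 in mESCs, -0.30 (-0.74 to 0.14), and -0.31 (-0.46 to -0.16) in PILECs.

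On the list of chaperone, trafficking and transport genes 7 of 7 had intervals below 0 in mESCs, beside 44 of 61 in the segments and 1.84% of all genes. At least 1.5-fold lower were 4 of them, beside 40 of 61 and 3.58%. Evl and Cdc42bpb are on this list but act on the actin skeleton, and Cdc42bpb is also on the list of kinases. Hsp90aa1, the stress-inducible cytosolic HSP90, had 189 tags or 77.7 RPM in wt and 132 tags or 37.5 RPM in menin-null mESCs, a ratio of -1.05 (-1.38 to -0.72). In PILECs it had 40.5 and 33.8 RPM, a ratio of -0.26 (-0.42 to -0.11). Cdc42bpb, a kinase that acts on the actin skeleton, had 81.4 and 62.0 RPM in mESCs and 68.1 and 57.9 RPM in PILECs, with ratios of -0.39 (-0.68 to -0.11) and -0.23 (-0.35 to -0.11). Tecpr2, an autophagy gene, shares its window with Cinp, and both had -0.38 (-0.75 to -0.01) in mESCs. In PILECs Tecpr2 had -0.07 (-0.20 to 0.07).

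Among the genes of DNA repair, replication and cell division, 2 of 4 were at least 1.5-fold lower in mESCs, beside 40 of 61 in the segments and 3.58% of all genes. In PILECs 1 was, beside 8 of 82 and 7.69%. This was Mlh3, a mismatch repair gene that acts in meiotic crossing over, with 132 tags in wt and 65 in menin-null PILECs, a ratio of -0.94 (-1.39 to -0.50). In mESCs it had 25 and 20 tags, a ratio of -0.85 (-1.78 to 0.05). Nek9, a mitotic kinase, had -0.65 (-1.08 to -0.23) in mESCs and -0.47 (-0.64 to -0.31) in PILECs. Dync1h1, the heavy chain of the dynein motor, had -0.36 (-0.74 to 0.02) and -0.04 (-0.16 to 0.09), and a difference between the PILEC libraries was not detectable for it.

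Genes of metabolism had a median of -0.89 over 7 genes in mESCs, the lowest of the role groups. The secreted factors and matrix genes were close, with -0.87 over 3 genes. At least 1.5-fold lower were 5 of the 7 metabolism genes, beside 40 of 61 in the segments and 3.58% of all genes. Dlst, a subunit of the 2-oxoglutarate dehydrogenase complex of the citric acid cycle, had 46.9 and 25.3 RPM in wt and menin-null mESCs and 50.3 and 40.5 RPM in PILECs, with ratios of -0.89 (-1.31 to -0.48) and -0.31 (-0.46 to -0.17). Acyp1, an acylphosphatase, had 21.0 and 8.25 RPM in mESCs and 27.5 and 22.5 RPM in PILECs, with ratios of -1.35 (-2.06 to -0.66) and -0.29 (-0.48 to -0.10). Slc25a29, a mitochondrial carrier of basic amino acids, had -1.22 (-1.77 to -0.69) and -0.18 (-0.36 to 0.01). Isca2, an iron-sulfur cluster assembly gene, had -0.70 (-1.12 to -0.27) and -0.24 (-0.37 to -0.11).

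Degs2, a sphingolipid desaturase and hydroxylase, had one of the lowest ratios in each stage. It had 43 tags in wt and 20 in menin-null mESCs, a ratio of -1.64 (-2.48 to -0.84). In PILECs it had only 24 and 11 tags, a ratio of -1.04 (-2.22 to 0.05), and this interval held 0. Abcd4, a transporter of the lysosomal vitamin B12 pathway, had one of the mESC ratios closest to 0, -0.34 (-1.03 to 0.36), and -0.32 (-0.53 to -0.10) in PILECs.

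The secreted factors and matrix genes had the widest range of ratios of the role groups in both stages, over 3 counted genes in mESCs and 4 in PILECs. The range rested on Tgfb3 in mESCs and on Pgf in PILECs. Tgfb3, a ligand of the TGF-beta family, had the lowest ratio of the segments in mESCs, on 29 tags in wt and 8 in menin-null cells, or 11.9 and 2.27 RPM, with a ratio of -2.39 (-3.73 to -1.23). In PILECs it had 213 and 141 tags, a ratio of -0.51 (-0.83 to -0.20). Ltbp2, a protein of elastic fibres, had -0.87 (-1.50 to -0.26) in mESCs and -0.47 (-0.98 to 0.03) in PILECs, and its level in wt cells was 21.4 RPM in mESCs and 4.47 in PILECs. Hhipl1 had -0.42 (-1.26 to 0.42) and -0.41 (-0.85 to 0.02).

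Pgf, a growth factor of the VEGF family, had the opposite direction. In PILECs it had 19 tags in wt and 60 in menin-null cells, or 1.01 and 3.39 RPM, a ratio of 1.75 (0.98 to 2.57) and the highest of the segments. In mESCs it had 9 and 6 tags, too few for the comparison. Rps6kl1, a gene next to Pgf named after its likeness to ribosomal S6 kinases, was the other gene with a PILEC interval above 0, with 102 tags in wt and 137 in menin-null cells and a ratio of 0.51 (0.13 to 0.90). In mESCs it had 20 and 18 tags, a ratio of -0.68 (-1.69 to 0.31).

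**Figure D4:**
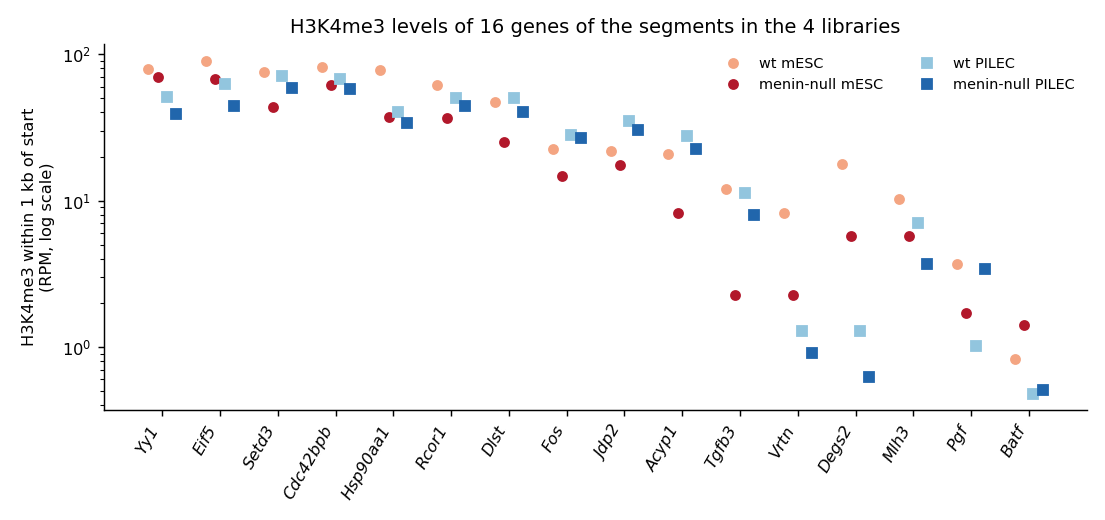
H3K4me3 within 1 kb of the start in RPM (log scale) of 16 genes of the segments in the 4 libraries, 1 point per library, for mESCs (circles) and PILECs (squares) with menin-null cells in the darker shade. The menin-null point lies below the wt point for 15 genes in mESCs, Batf being the exception, and for 14 in PILECs, Pgf and Batf being the exceptions.

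The list of kinases, phosphatases and signalling adaptors gave 6 counted genes, all below 0 in mESCs. The lowest of them and the 1 at least 1.5-fold lower was Ttll5, which is a tubulin glutamylase and none of these. Amn, a subunit of an endocytic receptor, and Tnfaip2, which resembles exocyst proteins, are on the list and are none of these either. The 5 genes other than Ttll5 lay between -0.56 (Ppp2r5c) and -0.39 (Cdc42bpb). Ttll5 had -0.72 (-1.12 to -0.32) in mESCs and -0.25 (-0.38 to -0.12) in PILECs, and Ppp2r5c, a regulatory subunit of the phosphatase PP2A, had -0.56 (-0.97 to -0.15) and -0.23 (-0.38 to -0.08). Fam164c had -1.44 (-2.39 to -0.55) in mESCs and -0.02 (-0.27 to 0.22) in PILECs, and a difference between the PILEC libraries was not detectable at this depth. Ankrd9 had 36.6 and 33.6 RPM in wt and menin-null mESCs, a ratio of -0.13 (-0.53 to 0.29), and 23.4 and 16.2 RPM in PILECs, a ratio of -0.53 (-0.75 to -0.31).

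Processed transcripts lacked a countable mark in mESCs. There 30 of the 91 genes had under 20 tags (33.0%, and 42.0% of all genes), among them all 15 processed transcripts (79.6% of all processed transcripts). In PILECs 9 of the 30 also had under 20 tags, which is 9.89% of the 91 genes, and 22.4% of all genes had under 20 in both stages. The first part of the 5.4-Mb segment, before Bcl11b (109148613), holds 13 of the 91 genes. None of the 13 reached 20 tags in mESCs, and 11 did in the deeper PILEC libraries. The 200-kb bin from 108000001 held 1073 tags in the wt and 963 in the menin-null PILEC H3K4me3 library. A count of 20 there need not mean a marked start. Thinly counted starts also gave some of the PILEC ratios far from 0. A230065H16Rik had the lowest, -1.19 (-2.71 to 0.15), on 17 tags in wt and 7 in menin-null cells, and Gm17639 had 0.67 (-0.58 to 1.99) on 10 and 15 tags. Both intervals held 0.

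At the edges, the nearest genes outside were in part as low as those inside. Lin52 starts 7543 bases before the 1.8-Mb segment and had 103 tags in wt and 82 in menin-null mESCs, a ratio of -0.86 (-1.30 to -0.43). At the other edge 1700020O03Rik, the last gene inside, had -0.84 (-1.42 to -0.26) and 4732487G21Rik, outside, had 4 and 9 tags. Vrk1, the last gene before the 5.4-Mb segment, had 53 and 127 tags, a ratio of 0.73 (0.26 to 1.22), and Gm17032, the first inside, had 1 and 2. Eif5 is the last gene inside, and 2810029C07Rik starts 10532 bases beyond the edge with 168 and 169 tags, a ratio of -0.52 (-0.84 to -0.21). The segments were set in bins of 200 kb.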

How the data were processed

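One H3K4me3 and one input library of each genotype and stage were analysed. Reads of 36 bp from an Illumina GAII had been placed on mm9 by the authors (aligner not given in the sources used here), who kept uniquely placed ones and deposited each tag's position with no count, score or other normalized value. Tags whose record shows over 2 mismatches, 1.04% to 1.81% of a library, were kept, as were tags at the same position and strand (11.4% in wt and 4.17% in menin-null mESC H3K4me3, 11.5% and 11.4% in PILECs).

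Each tag was moved 125 bases, which is the centre of an average fragment of 250 bp, and counted within 1 kb of gene starts of the GENCODE annotation of mm9 (26212 genes, 75434 starts). Of several starts the one with the highest summed RPM of the 4 H3K4me3 libraries was used, so that all libraries share a window. RPM is tags per 1000000 tags of the library. Ratios used genes with at least 20 tags in both genotypes together, and a count of 0 was set to 3 tags. The calls are by fold or counting interval, since 1 library per condition allows no test. Python 3.11.15, numpy 2.4.6, pandas 2.3.3, scipy 1.17.1 and matplotlib 3.10.9 were used, and the counting intervals were tested on simulated data.

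The genes, the gene lists and the alternatives were chosen with earlier results of these data known. Named are the 5 lowest and 5 highest ratios in mESCs, the 3 lowest and 3 highest in PILECs, the 3 highest levels, the genes at the edges (except 1 result not reported here) and up to 3 genes of each role list. Batf, Rps6kl1, the genes named by their place outside the shifted interval and those not lower in mESCs than in PILECs were chosen after their values were seen. Ratios relative to the median of all genes are an alternative chosen after seeing the data.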

Additional observations from a re-analysis of the deposited data

Results flagged for a closer look

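Gm805, a lincRNA of the 1.8-Mb segment, had H3K4me3 at least 1.5-fold lower in one stage and at least 1.5-fold higher in the other. Its log2 ratio, menin-null over wt, was -1.06 (95% counting interval -2.47 to 0.28) on 9 and 13 tags in mESCs and 0.87 (-0.27 to 2.09) on 19 and 11 tags in PILECs. Both intervals held 0, and the difference between the stages was not tested.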

How the results depend on the processing

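No paired analysis was possible because each condition has 1 library. Of 114 alternatives to the reported values 92 stayed within the interval of the reported value (of the median over genes for medians, of the counts for sums and segments) or, for numbers of genes, within 1.5 times it. The interval of the median treats genes as independent and served only as this yardstick. Division by the input ratio of the segment without centring on all genes turned the median of the genes in mESCs to 0.22 and their sum to 0.31. It left 3 of 61 genes at least 1.5-fold lower there, beside 3.58% of all genes without the division. The PILEC median moved to -0.10, the PILEC sum to -0.093 and the PILEC count to 5 of 82, beside 7.69% of all genes without the division. Scaling by tags within 1 kb of starts moved the mESC median to -0.95 and the sum to -0.86, and the PILEC values to -0.21 and -0.20. All genes had a median of 0.23 in mESCs and -0.07 in PILECs. Relative to the median of all genes the medians were -0.94 and -0.23. The 1.8-Mb segment alone had an mESC median of -0.84, a sum of -0.77 and 23 genes at least 1.5-fold lower in mESCs and 1 in PILECs. The 5.4-Mb segment alone had a median of -0.58 and 17 genes. In PILECs the count of genes was 38 at a log2 ratio of -0.32 or lower, 40 by the interval, 2 with at least 50 tags and 5 within 2 kb of the start. Apart from the 2 turned by the input, all 78 alternatives of ratios lay below 0. Of the 78, 5 are of the mESC input ratio that chose the segments, so their sign was set by the choice. These 5 are also among the 92 above. Counts of each position and strand once gave an mESC median of -0.66. The shallow mESC libraries limit the precision. In them 30 of 91 genes had under 20 tags, beside 42.0% of all genes, and 4 of the 30 had at least 10 CpGs. The part of depth in this count was not tested.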

Other observations

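The 200-kb bins just beyond the right edges held intermediate input ratios in mESCs. The bin after the 1.8-Mb segment had 591 wt and 400 menin-null tags, which is -0.38 on the log2 scale of RPM, and the bin after the 5.4-Mb segment had 658 and 453, or -0.36. In PILECs the same bins had ratios of -0.04 and -0.04.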
